A study of Mus musculus with 6 samples.

Results

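The genes of tight junctions, desmosomes and gap junctions were followed in the uterus of mice that lack *Sox17* in the uterine epithelium. The set holds every gene whose symbol begins with *Cldn*, *Tjp*, *Dsg*, *Dsc*, *Pkp*, *Gja*, *Gjb* or *Gjc* and a number, together with *Ocln*, *Marveld2*, *Marveld3*, *F11r*, *Cgn*, *Dsp*, *Jup*, *Cdh1*, *Cdh3* and *Epcam*. Of 20145 genes matched to the array, 73 belonged to the set, and 49 of these were among the 14847 genes whose signal was high enough to test. The set was made up of 31 claudins, 8 other tight junction proteins, 15 desmosome proteins, 16 connexins, and 3 further adhesion molecules, namely *Cdh1*, *Cdh3* and *Epcam*.

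The study asked what the transcription factor SOX17 does in the uterine epithelium around the time an embryo attaches. RNA of 6 samples of whole uterine tissue from mated females was hybridized to Agilent mouse gene expression arrays, with 1 sample on each array. The 3 control samples, *Sox17* f/f, carried the floxed *Sox17* alleles without recombinase. The other 3 samples, labelled LtfiCre/+ *Sox17* f/f and called *Sox17* ed/ed here, carried the same floxed alleles plus 1 copy of an iCre recombinase driven from the *Ltf* locus, which acts in the uterine epithelium and begins to do so at puberty. Females of both groups were mated at 8 to 10 weeks of age with males of proven fertility. Tissue was taken at gestation day (GD) 3.5, which was 3 days after the plug, and the uteri held no embryos when they were frozen. The labels do not say whether each array stands for a separate mouse, so p-values measure the spread between these samples.

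The signal of *Sox17* itself, in log2 units of the normalized array intensity, was 12.22, 12.07 and 12.22 in the *Sox17* f/f uteri and 9.75, 9.58 and 9.80 in the *Sox17* ed/ed uteri. The groups lay apart, with a log2 fold change of -2.45 (SE 0.09, adjusted p = 2.62e-05). A second *Sox17* probe differed by -2.98, so every array fitted its label. On each array 56.8% to 65.7% of the spots were well above background, with 60.7% as the lowest share in the controls and 59.4% as the highest in the *Sox17* ed/ed uteri. Arrays of a group correlated at 0.990 to 0.995 over the genes tested, which leave out dim probes. Because the tissue was whole uterus, fewer cells of a type and less RNA per cell cannot be told apart in any of these values.

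Tight junctions seal the space between neighbouring epithelial cells, and claudins are the membrane proteins that form their strands and set which ions pass. Desmosomes anchor the keratin filaments of one cell to those of the next through desmogleins and desmocollins, held from inside by plakophilins, plakoglobin and desmoplakin. Gap junctions are channels of connexins through which small molecules pass from cell to cell. In the rodent uterus the luminal epithelium remodels its junctions as it becomes receptive to the embryo.

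The promoter windows of 4 members are shown because they are those of the claudins and connexins with the highest and lowest fold change among members that passed the thresholds, were above background on all 6 arrays and had a window to show. Each runs from 250 bases before to 50 bases after the start of a RefSeq transcript, 5′ to 3′ on the strand of the gene, all 4 on the plus strand of the GRCm38.p6 build. The window of *Cldn2*, which rose, is chrX:139800558-139800857, and that of *Cldn3*, which fell, is chr5:134985964-134986263. The window of *Gjb1*, which rose, is chrX:101376126-101376425, the first listed of 4, and that of *Gja5*, which fell, is chr3:97032152-97032451. Capitals mark the letters ATTGT or ACAAT, the core that SOX proteins bind, and TATAAA or TTTATA, the TATA box.
*Cldn2*: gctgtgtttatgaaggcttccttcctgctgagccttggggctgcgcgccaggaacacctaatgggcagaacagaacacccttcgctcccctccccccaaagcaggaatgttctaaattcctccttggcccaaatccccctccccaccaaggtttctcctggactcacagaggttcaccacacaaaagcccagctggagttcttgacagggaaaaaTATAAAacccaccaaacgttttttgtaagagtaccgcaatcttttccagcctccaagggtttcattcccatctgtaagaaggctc
*Cldn3*: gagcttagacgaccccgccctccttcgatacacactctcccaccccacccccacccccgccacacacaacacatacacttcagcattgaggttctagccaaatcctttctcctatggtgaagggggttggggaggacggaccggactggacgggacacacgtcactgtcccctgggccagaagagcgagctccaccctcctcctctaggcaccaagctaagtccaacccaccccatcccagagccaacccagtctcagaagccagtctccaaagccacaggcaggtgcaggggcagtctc
*Gjb1*: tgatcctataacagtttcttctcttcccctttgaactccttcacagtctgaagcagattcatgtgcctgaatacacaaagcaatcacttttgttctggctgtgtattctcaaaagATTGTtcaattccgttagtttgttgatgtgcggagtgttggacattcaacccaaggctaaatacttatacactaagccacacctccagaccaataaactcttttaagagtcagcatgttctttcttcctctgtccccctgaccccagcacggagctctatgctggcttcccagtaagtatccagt
*Gja5*: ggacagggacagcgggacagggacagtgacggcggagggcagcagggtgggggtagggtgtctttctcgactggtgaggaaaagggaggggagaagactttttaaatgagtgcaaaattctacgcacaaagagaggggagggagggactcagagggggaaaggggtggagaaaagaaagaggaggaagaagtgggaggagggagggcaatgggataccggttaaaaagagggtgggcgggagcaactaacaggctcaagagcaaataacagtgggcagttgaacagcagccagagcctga

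The *Cldn2* window held a TATA box starting 35 bases before the transcript start and no SOX core. In the *Gjb1* window a SOX core began 135 bases before the start, and those of *Cldn3* and *Gja5* held neither motif. Of 32851 windows of this length in the RefSeq table, 31.0% held ATTGT on either strand and 13.6% held TATAAA. Counted by gene, the shares were 34.4% and 15.7% of 27025 genes, and among the 32 tested members with a window 9 held a SOX core and 4 a TATA box. A SOX core was present in 2 of 9 members that rose, *Gjb1* and *Tjp3*, and in 4 of 7 that fell, *Cldn15*, *Cldn20*, *Cldn22* and *Gja4*. CCAAT, whose reverse complement ATTGG shares the letters ATTG with the SOX core, was present in 37.4% of windows. By gene it was in 41.1% of all genes and in 14 of the 32 members. The grainyhead site AACCGGTT was in 0.146% of windows (0.174% of genes) and in 0 members. The estrogen response element was in 0.0700% of windows (0.0740% of genes) and also in 0 members. These matches are letters in a short window and describe no binding.

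A gene was said to have passed the thresholds when limma's unadjusted p was under 0.01 and the fold change at least 1.4, the rule in the study's methods. Adjusted p-values are Benjamini-Hochberg values over all genes tested. By this rule 23 of the 49 junction genes tested (46.9%) differed between the genotypes, against 12.5% of all genes tested. Of these, 15 rose in *Sox17* ed/ed uteri, where 5.89% of all genes did, and 8 fell, where 6.58% of all genes did. At an adjusted p under 0.05 with no fold threshold 25 members passed, against 19% of all genes, with 16 higher (8.67% of all genes) and 9 lower (10.3%). The 3 arrays of each genotype did not overlap for 32 members (65.3%), against 40.8% of all genes. The mutant arrays were the higher ones in 23 of these members (19.3% of all genes) and the lower ones in 9 (21.5%). The median size of the log2 fold change was 0.50 over the members tested and 0.17 over all genes, and the medians with sign were 0.26 and -0.01. Since some members were above background on fewer than 6 arrays, the count was also taken over the 42 members above background on all of them, of which 19 passed (45.2%) in the same fit over 14847 genes, against 11.4% of all such genes.

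**Figure D1:**
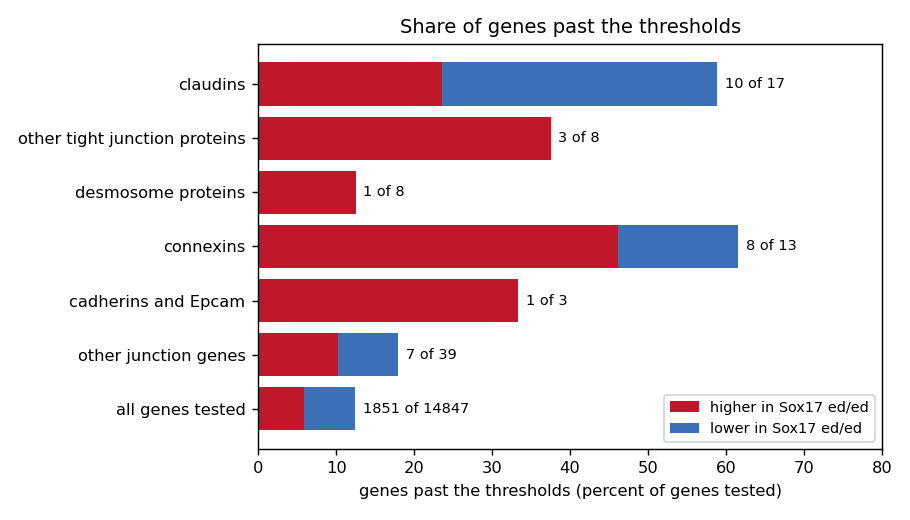
Share of tested genes that passed the thresholds, in percent, for each group of junction genes, for the other junction genes listed beside them and for all genes tested. Red bars stand for genes higher and blue bars for genes lower in *Sox17* ed/ed uteri. Claudins (10 of 17) and connexins (8 of 13) had the largest shares of the groups drawn, and desmosome proteins (1 of 8) were at 12.5%, the share of all genes.

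Claudins moved in both directions. Of 17 tested, 4 rose (*Cldn2*, *Cldn8*, *Cldn10* and *Cldn5*) and 6 fell (*Cldn23*, *Cldn22*, *Cldn3*, *Cldn20*, *Cldn7* and *Cldn15*). *Cldn2* encodes a claudin that forms pores for cations and water and is typical of leaky epithelia. Its log2 signal was 4.63, 5.03 and 3.77 in *Sox17* f/f uteri and 7.96, 7.56 and 7.81 in *Sox17* ed/ed uteri. All 3 mutant values were above all 3 control values, with means of 4.47 ± 0.64 and 7.78 ± 0.20 (SD, n = 3 each). The difference was 3.30 on the log2 scale (SE 0.32, adjusted p = 0.00112), or 9.87-fold, the highest of the 49 members. It was 1.71 with normexp background correction. A second *Cldn2* probe was well above background on 1 control array and 0 mutant arrays, so it was not tested. The value of *Cldn2* thus rests on 1 probe.

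*Cldn8* encodes a claudin known as a barrier to cations in the distal nephron. It was measured at 8.32, 7.82 and 7.90 in the control uteri and at 10.74, 10.58 and 9.32 in the mutant uteri. The groups did not overlap, although replicate 3 of the *Sox17* ed/ed uteri was more than 1 log2 unit below the other two. The log2 fold change was 2.20 (SE 0.38, adjusted p = 0.0116). *Cldn10*, another channel-forming claudin, rose by 0.70 (adjusted p = 0.00574), from 10.10 ± 0.18 to 10.80 ± 0.04. *Cldn5*, best known as the claudin of endothelium, rose by 0.52 (adjusted p = 0.0116). The call of *Cldn5* was lost, because the fold came under 1.4, without *Sox17* f/f replicate 2 (0.45), without *Sox17* ed/ed replicate 3 (0.47), with the 75th percentile shift (0.47) and with normexp (0.47).

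The claudins that fell were led by *Cldn23*. Its log2 signal was 7.79, 8.00 and 7.89 in *Sox17* f/f uteri and 6.07, 5.85 and 6.29 in *Sox17* ed/ed uteri, so the arrays of the genotypes lay far apart. The difference was -1.82 (SE 0.13, adjusted p = 0.000293), and -1.15 with normexp. *Cldn3*, a sealing claudin of simple epithelia, gave 13.43, 13.36 and 13.50 in the controls and 12.32, 12.15 and 12.34 in the mutants. The replicates of *Cldn3* lay close together in each genotype and the groups differed by -1.16 (SE 0.08, adjusted p = 0.000272). *Cldn7*, also a claudin of simple epithelia and a known partner of EPCAM, fell by 0.72 (SE 0.12, adjusted p = 0.00931), from 13.05 ± 0.20 to 12.33 ± 0.11. *Cldn15*, a cation channel of the intestine, fell by 0.57 (adjusted p = 0.0425). Its call rested on the full set of arrays, since it was lost without *Sox17* f/f replicate 1 or 2 or *Sox17* ed/ed replicate 1 or 2 (-0.58 to -0.46, adjusted p 0.103 to 0.124), with normexp (-0.48) and with no filter on dim probes (adjusted p = 0.082).

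A pair of dim claudins also passed. *Cldn20* was at 4.93, 5.35 and 5.0 in the control uteri and at 4.50, 3.76 and 3.87 in the mutant uteri. It was well above background on 3 control arrays and 1 mutant array, and the log2 fold change was -1.05 (SE 0.22, adjusted p = 0.0217). The call of *Cldn20* was lost without *Sox17* ed/ed replicate 2 (-0.91, adjusted p = 0.0636) or replicate 3 (-0.96, adjusted p = 0.0751), and with normexp (-0.29). *Cldn22* was at 5.95 and 6.11 in *Sox17* f/f replicates 1 and 2 and at 4.39, 4.41 and 4.57 in *Sox17* ed/ed uteri. The spot of *Cldn22* in *Sox17* f/f replicate 3 carried an outlier flag and was left out, so its fit rested on 5 values. The 5 values did not overlap between the genotypes, and the log2 fold change was -1.57 (SE 0.10, adjusted p = 0.000549). With the deposited table of processed values, which keeps that spot, it was -3.65 (adjusted p = 0.187) and the call was lost, and with normexp it was -0.60.

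The remaining 7 claudins tested did not pass. *Cldn9* differed by 0.41 (adjusted p = 0.10), *Cldn14* by 0.37, *Cldn1* by 0.26, *Cldn12* by 0.11, *Cldn34c1* by 0.02, *Cldn11* by -0.21 and *Cldn4* by -0.35 (adjusted p = 0.295). *Cldn4*, which lies next to *Cldn3* on chromosome 5, passed without *Sox17* f/f replicate 3 (-0.59), and *Cldn1* without *Sox17* f/f replicate 2 (0.50). Both are claudins of many epithelia. Both probes of *Cldn4* gave a like value, -0.35 and -0.34. Another 14 claudins were not tested because their probes were not well above background on enough arrays.

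**Figure D2:**
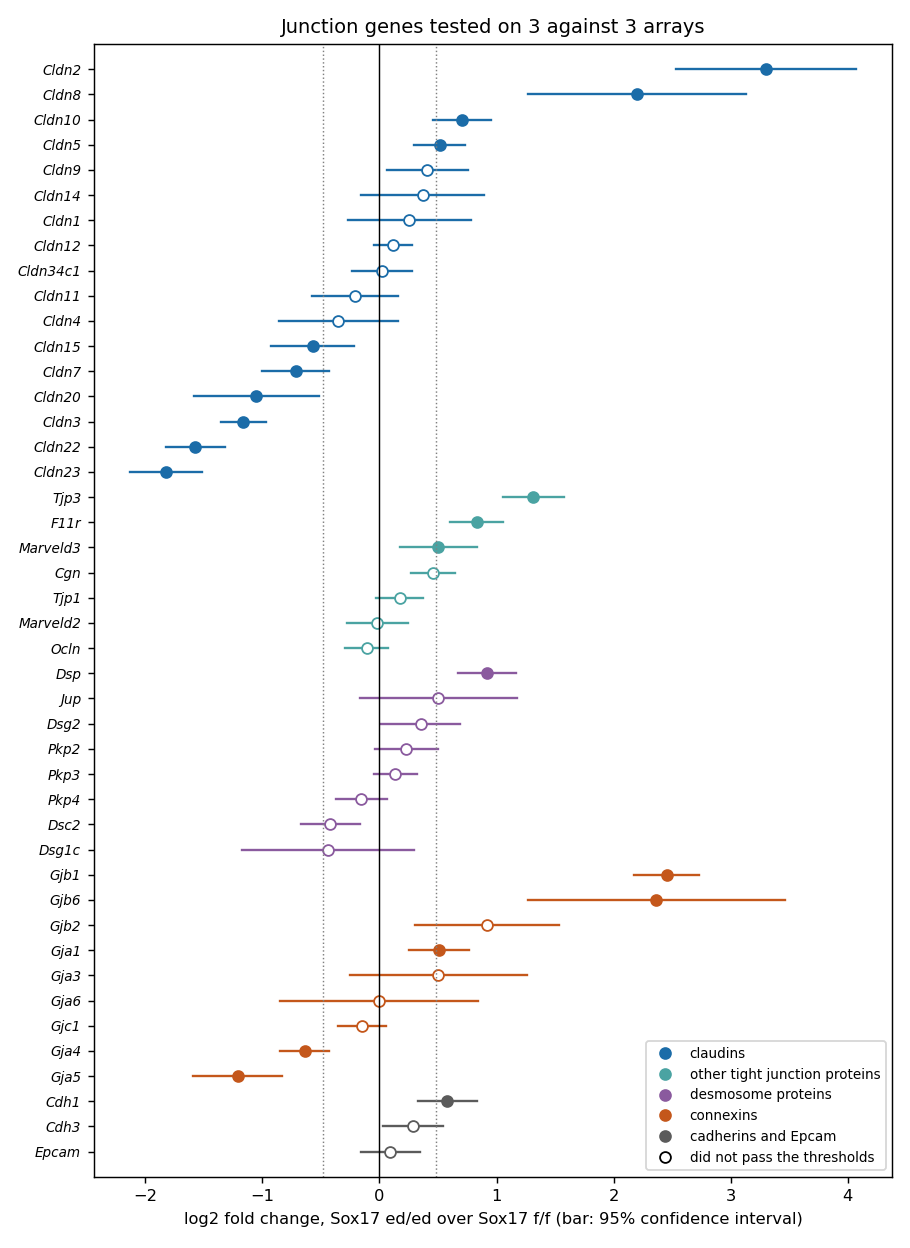
Log2 fold change of 44 of the 49 junction genes tested, *Sox17* ed/ed over *Sox17* f/f, with its 95% confidence interval from limma, coloured by group. Filled points passed the thresholds, open points did not, and dotted lines mark a 1.4-fold change. Claudins spread from -1.82 (*Cldn23*) to 3.30 (*Cldn2*), and *Gjb1*, *Gjb2* and *Gjb6* all lie above 0.

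Among the other tight junction proteins, 3 of 8 passed, and all 3 were higher in *Sox17* ed/ed uteri. *Tjp3* encodes ZO-3, a scaffold under the junction membrane found mainly in epithelia. Its log2 signal was 10.48, 10.41 and 10.67 in *Sox17* f/f uteri and 11.96, 11.67 and 11.88 in *Sox17* ed/ed uteri. The groups did not overlap, and the difference was 1.32 (SE 0.11, adjusted p = 0.000557). *F11r*, which encodes the junctional adhesion molecule JAM-A, rose by 0.83 (SE 0.09, adjusted p = 0.00223), from 11.96 ± 0.07 to 12.79 ± 0.15. *Marveld3*, a membrane protein related to occludin, rose by 0.50 (adjusted p = 0.0496) by its brighter probe, and its other probe differed by 0.26. The call of *Marveld3* was lost without *Sox17* f/f replicate 1 or 2 or *Sox17* ed/ed replicate 1 or 3 (0.40 to 0.49, adjusted p 0.115 to 0.147), and also with normexp (0.42), with no filter, with the mean of its probes (0.38) and with the deposited values.

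*Cgn*, encoding the cytoplasmic plaque protein cingulin, differed by 0.46 with an adjusted p of 0.01, a change under the fold threshold, and passed without *Sox17* f/f replicate 3 (0.50) or *Sox17* ed/ed replicate 2 (0.49). *Tjp1*, which encodes ZO-1, was at 11.27, 11.23 and 11.34 in the controls and 11.35, 11.59 and 11.42 in the mutants. The mutant values were just above the control values, and the difference of 0.17 had a confidence interval from -0.03 to 0.37. *Ocln*, which encodes occludin, was at 6.92, 6.84 and 7.05 in *Sox17* f/f uteri and at 6.86, 6.78 and 6.83 in *Sox17* ed/ed uteri. These values overlapped, the difference was -0.11 (confidence interval -0.30 to 0.08), and the second *Ocln* probe differed by 0.23. *Marveld2*, which encodes tricellulin, the protein at the corners between cells and a neighbour of *Ocln* on chromosome 13, differed by -0.02 (confidence interval -0.27 to 0.24).

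Of 8 desmosome genes tested, 1 passed. *Dsp* encodes desmoplakin, the link between the desmosome plaque and keratin filaments. It was at 9.37, 9.35 and 9.41 in *Sox17* f/f uteri and at 10.42, 10.08 and 10.37 in *Sox17* ed/ed uteri. The control arrays were within a few hundredths of each other and every mutant value was above them, with a log2 fold change of 0.92 (SE 0.10, adjusted p = 0.0021). *Jup*, which encodes plakoglobin, was at 5.38, 5.40 and 4.51 in the controls and at 5.67, 5.28 and 5.85 in the mutants. These values overlapped, and the difference of 0.50 did not pass (adjusted p = 0.258, confidence interval -0.17 to 1.17).

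The transmembrane cadherins of the desmosome did not pass. *Dsg2*, the desmoglein of simple epithelia, differed by 0.35 (adjusted p = 0.133), and *Dsc2*, its desmocollin counterpart, by -0.42 (adjusted p = 0.0374), under the fold threshold. *Dsg1c* differed by -0.44 (adjusted p = 0.362). Each of these passed when 1 array was left out, *Dsg2* without *Sox17* ed/ed replicate 2 (0.51), *Dsc2* without *Sox17* ed/ed replicate 1 (-0.52) and *Dsg1c* without *Sox17* f/f replicate 2 (-0.78). The plakophilins, which bind desmosomal cadherins from inside, differed by 0.23 (*Pkp2*), 0.14 (*Pkp3*) and -0.15 (*Pkp4*). Of the desmosome genes, 7 were not tested, namely *Dsc1*, *Dsc3*, *Dsg1a*, *Dsg1b*, *Dsg3*, *Dsg4* and *Pkp1*. Most of these are genes of stratified epithelia such as epidermis.

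Among connexins, 8 of 13 passed, with 6 that rose and 2 that fell in the *Sox17* ed/ed group. The 5 genes of the *Gjb* class that were tested had values above 0, with the 3 mutant arrays above the 3 control arrays in each, and 4 of them passed. *Gjb1* encodes connexin 32, abundant in liver. It was at 7.87, 7.60 and 7.53 in *Sox17* f/f uteri and at 10.26, 10.02 and 10.08 in *Sox17* ed/ed uteri. Means were 7.67 ± 0.18 and 10.12 ± 0.12 (SD, n = 3 each), a difference of 2.45 (SE 0.11, adjusted p = 6.98e-05), a 5.48-fold change.

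*Gjb6*, which encodes a connexin found in skin and the inner ear, was dim. It was at 4.45, 3.15 and 2.74 in *Sox17* f/f uteri and at 6.09, 5.96 and 5.38 in *Sox17* ed/ed uteri. The groups did not overlap. *Gjb6* was well above background on 1 control array and on all 3 mutant arrays, so it could be tested only because of the mutant group. It rose by 2.36 (SE 0.45, adjusted p = 0.0162) and by 0.72 with normexp.

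*Gjb2* encodes connexin 26, the gap junction protein that rodent uterine epithelium is known to induce around implantation. It was at 6.79, 7.72 and 7.52 in *Sox17* f/f uteri and at 8.30, 8.03 and 8.46 in *Sox17* ed/ed uteri. All mutant values were above all control values, but the difference of 0.92 (SE 0.25) did not pass, with an unadjusted p of 0.0103 and an adjusted p of 0.0529 from limma. It passed without *Sox17* f/f replicate 1 (0.64) or replicate 2 (1.11), with normexp (0.72), with an intensity trend in the variance and among genes above background on all 6 arrays.

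*Gja1* encodes connexin 43, the connexin of decidualizing stroma and of the muscle layer of the uterus. It was at 8.53, 8.82 and 8.50 in the control uteri and at 9.03, 9.17 and 9.17 in the mutant uteri. The groups did not overlap and *Gja1* rose by 0.51 (SE 0.11, adjusted p = 0.0216), a 1.42-fold change close to the threshold. Its call was lost without *Sox17* f/f replicate 1 or 3 or *Sox17* ed/ed replicate 2 or 3 (0.45 to 0.49, adjusted p 0.0507 to 0.079), and with normexp (0.43).

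The connexins that fell, *Gja4* and *Gja5*, encode connexins known from arterial endothelium. *Gja5* was at 9.05, 8.44 and 8.73 in *Sox17* f/f uteri and at 7.56, 7.44 and 7.58 in *Sox17* ed/ed uteri. The groups lay apart by -1.21 (SE 0.16, adjusted p = 0.00368). A dim second probe of *Gja5* differed by -0.45, and the mean of both probes by -0.83 (adjusted p = 0.385), which did not pass. *Gja4* was at 11.55, 11.59 and 11.53 in the controls and at 10.76, 10.96 and 11.03 in the mutants, a fall of 0.64 (SE 0.09, adjusted p = 0.00452) with no overlap. *Gja3* (0.50), *Gja6* (-0.00) and *Gjc1* (-0.15) did not pass, and *Gja10*, *Gjb5* and *Gjc3* were not tested.

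**Figure D3:**
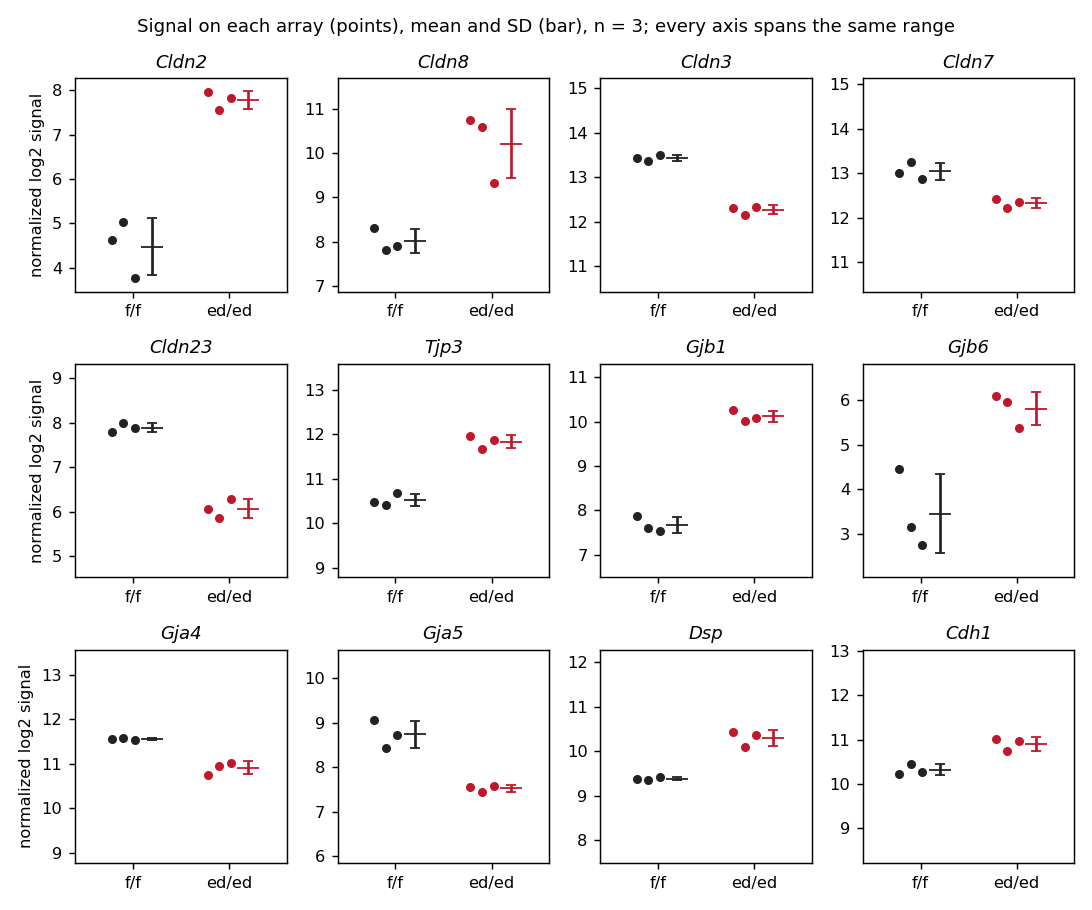
Normalized log2 signal of 12 junction genes on each array, with *Sox17* f/f in black and *Sox17* ed/ed in red. Points are arrays, bars show the mean and SD (n = 3), and every vertical axis spans the same range but starts at a different value. The 12 were picked from members that passed the thresholds. The arrays of the genotypes lie apart in all 12 panels, which that choice favours. The 40.8% of all genes tested that lay apart were not so chosen, so the shares cannot be compared. *Cldn8* has the widest spread among the mutants because replicate 3 was at 9.32.

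Some members are neighbours on a chromosome in the GRCm38.p6 gene order. On chromosome 14 *Gja3*, *Gjb2* and *Gjb6* follow each other, with values of 0.50, 0.92 and 2.36, of which that of *Gjb6* passed. On chromosome 8 the cadherin genes *Cdh3* and *Cdh1* are neighbours.

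*Cdh1* encodes E-cadherin, which holds epithelial cells together at adherens junctions. It was at 10.23, 10.46 and 10.27 in *Sox17* f/f uteri and at 11.02, 10.73 and 10.96 in *Sox17* ed/ed uteri. The groups did not overlap and *Cdh1* rose by 0.58 (SE 0.10, adjusted p = 0.0132). *Cdh3*, which encodes P-cadherin, differed by 0.29 (adjusted p = 0.116). *Epcam*, an epithelial adhesion molecule, was at 9.26, 9.23 and 9.04 in the controls and at 9.34, 9.1 and 9.38 in the mutants. These values overlapped, and the difference of 0.09 had a confidence interval from -0.16 to 0.35. *Cdh1* thus rose where *Cldn3* and *Cldn7*, also genes of simple epithelia, fell. An exact permutation test of any one member cannot go below 0.1 with 3 against 3 arrays, and gave 0.1 for *Cdh1*, *Cldn2*, *Cldn3*, *Gjb1* and *Gja5*.

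A list of 46 other junction genes, such as further adhesion molecules, polarity proteins and proteases of the epithelial surface, was set beside the members. Of the 39 tested, 7 passed (17.9%), against 12.5% of all genes tested. Of these 7, 4 were higher (5.89% of all genes) and 3 lower (6.58%). Among those that rose were *Perp*, a desmosome membrane protein, by 0.92, *Evpl*, encoding the desmosomal plaque protein envoplakin, by 0.82, and *Cxadr*, a tight junction adhesion molecule, by 0.64. Those that fell were *Jam2* (-2.87), *Ildr1*, a protein of tricellular junctions (-1.08), and *Esam*, an adhesion molecule of endothelium (-0.57). *Jam2* encodes a junctional adhesion molecule, and the study lists it and *Cldn7* among genes specific to the luminal epithelium.

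Markers of the cell types in the uterus moved with the genotypes as well. Of 14 uterine epithelial markers tested, 6 rose, namely *Krt19* (2.10), *Wfdc2* (1.47), *Ehf* (1.46), *Krt7* (1.46), *Emx2* (0.70) and *Krt8* (0.69). Another 3 fell, namely *Esrp2* (-0.97), *Pax8* (-0.91) and *Prom1* (-0.57). The summed normalized signal of the 14 was 63954 to 67453 in the controls and 101154 to 125484 in the mutants. Without *Wfdc2* and *Krt19*, a sum taken after seeing the data, the other 12 gave 39055 to 44564 and 37107 to 44848, which overlapped. *Krt18*, the brightest of those 12, differed by -0.16. Of 13 stratified squamous markers, 5 rose and 1 fell (*Serpinb5*, -1.94), with sums of 3534 to 4171 and 6169 to 7089. *Calml3* rose by 5.81, while *Krt10*, *Krt13*, *Krt14* and *Krt16* did not pass. The squamous keratins *Krt15* and *Krt5* were not well above background on any control array and were on all 3 mutant arrays, *Trp63* differed by -0.12, and *Krt6b*, *Krt1*, *Sprr1b* and *Sprr3* were well above background on 0 arrays. Beside *Cldn5*, *Gja4* and *Gja5*, all 10 endothelial markers were below 0, 1 passed the thresholds (*Vwf*, -0.84), and their sums were 72915 to 78239 and 54032 to 60487. Beside *Gja1*, 2 of 10 smooth muscle markers fell, with sums of 505581 to 556707 and 377388 to 449590. Also beside *Gja1*, 0 of 11 stromal markers passed, with sums of 326414 to 330358 and 292078 to 311576. *Dcn*, the brightest stromal marker in the controls, differed by -0.42, and the median over the stromal markers was 0.03. The part of these differences in the values of the junction genes was not tested.

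**Figure D4:**
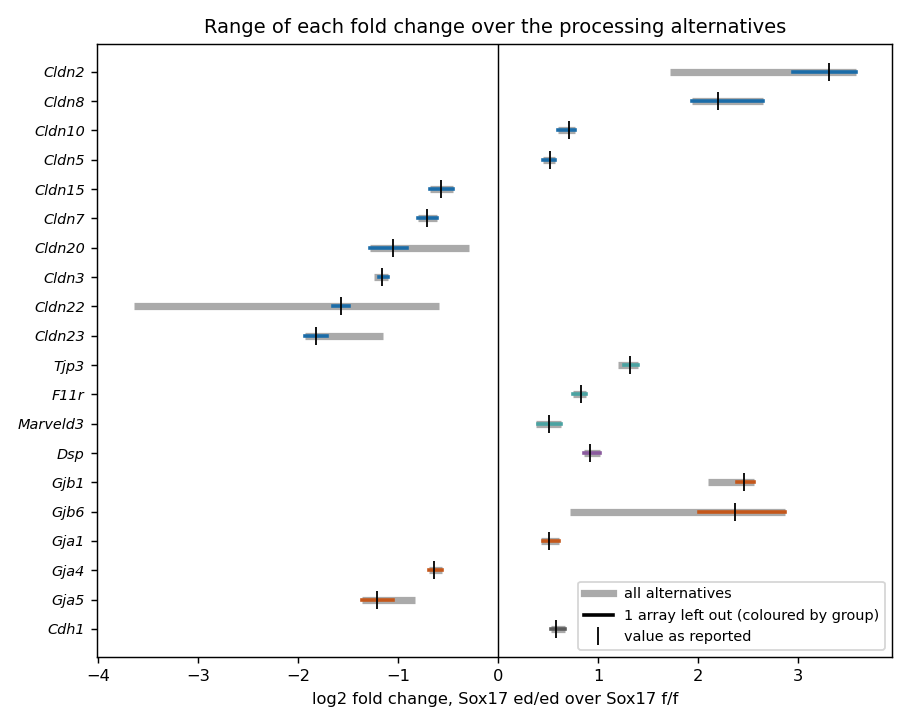
Log2 fold change of 20 of the 23 junction genes that passed the thresholds, with its range over the processing alternatives (grey bars) and over the fits that each leave out 1 array (coloured lines), and the value as reported (black ticks). None of the 20 ranges crosses 0, and the widest, that of *Cldn22*, runs from -3.65 to -0.60.

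Over 9 alternatives that kept the 6 arrays and the thresholds and 6 that left out 1 array, 14 of the 23 calls were kept by every one that tested the gene. Among these were *Cldn2*, *Cldn8*, *Cldn10*, *Cldn23*, *Cldn3*, *Cldn7*, *Tjp3*, *F11r*, *Dsp*, *Gjb1*, *Gjb6*, *Gja4* and *Cdh1*. Another 9 lost the call under 1 or more, and 0 of the 23 changed sign. Of the 26 members that did not pass, 7 did so under 1 or more alternatives, namely *Cgn*, *Cldn1*, *Cldn4*, *Dsc2*, *Dsg1c*, *Dsg2* and *Gjb2*.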

How the data were processed

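Per the labels and the study's methods, total RNA of frozen whole uterus was labelled with Cy3 and hybridized to 1-colour Agilent G3 Mouse GE arrays. The authors deposited each array's scanner output (Feature Extraction 11.0.1.1 per the file headers, although the submitters' processing notes name 9.1), in which the spot intensity used, the processed signal, is background-subtracted and not normalized between arrays. A deposited table of processed values held the same signals within 0.19%, also not normalized.

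Control spots and 169 to 302 flagged spots per array were left out, and 0 were saturated. Log2 intensities were quantile normalized, as in the study's methods, the spots of each probe averaged, and only probes kept that at least 3 of 6 arrays showed well above background. Of 55681 probes, 26582 were named by accession from the RefSeq table of GRCm38.p6, used for names and gene order. The brightest probe stood for a gene. The genotypes, 3 arrays each, were compared with limma 3.58.1 (lmFit, eBayes) in R 4.3.3 over 14847 genes. The number of arrays limits the precision. Steps were tested on simulated data. Python 3.11.15 and matplotlib 3.10.9 made tallies and plots.

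Every member was counted, with all arrays given for those that passed with at least a 2-fold change and for *Cdh1*, *Epcam*, *Ocln*, *Tjp1*, *Dsp*, *Jup*, *Gja1* and *Gjb2*, and the other junction genes that passed were named. Single results of some of these genes are not reported here. The members, gene lists, marker lists (uterine epithelium, stratified squamous epithelium, stroma, smooth muscle, endothelium, mesothelium, leukocyte, multiciliated cell and oviduct, ovary, adipocyte and exocrine pancreas) and alternatives were chosen with earlier results of these data known. Normexp correction, with an offset of 50, used each spot's median signal, since the files held no mean signal. Promoter windows are those of RefSeq.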

Additional observations from a re-analysis of the deposited data

How the results depend on the processing

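The number of junction genes that passed the thresholds was 23 as reported. It was 22 with the 75th percentile shift, 19 with normexp, 21 with no filter on dim probes, 20 of 42 in a refit on genes above background on all 6 arrays alone (19 of these 42 members passed in the fit over all genes tested), 20 with the mean of a gene's probes, 23 with the probe of the smallest p, 24 with an intensity trend and 21 with the deposited values. Leaving out 1 array gave 17 to 23, with 10 to 14 higher and 6 to 9 lower, the lowest count being that without *Sox17* ed/ed replicate 3. With a fold of at least 2, 12 junction genes passed, 7 higher and 5 lower, and 3 of the other junction genes. With an adjusted p under 0.05 and no fold threshold, 25 passed. The log2 fold change of *Sox17* stayed between -2.98 and -2.39. The 2 *Sox17* probes and every alternative kept its direction. The replicate numbers are those of the labels. Same-numbered samples deviated from their group means with correlations of 0.06, -0.11 and -0.00, and differently numbered samples with -0.08 to 0.08. No pairing by number was visible, although these values cannot exclude it. With the replicate number as a block, 20 junction genes passed, as did 1793 of all genes in place of 1851. The call of *Cldn15* was among those lost. All arrays lay on 1 slide with each genotype in its own line, so no fit with the slide as a block was run, and position on the slide and genotype cannot be told apart. The cause of a lost call was not tested. Signals near background limit *Gjb6*, *Cldn20* and *Cldn22*, and in the controls *Cldn2*.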

Other observations

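Of the 24 members not tested, 20 were not well above background on any array. The other 4 were so on 1 or 2 arrays. *Cldn19* was well above background on 1 array of each genotype, *Cldn17* and *Cldn18* on 1 *Sox17* f/f array each, and *Dsg3*, a desmoglein of stratified epithelia, on 1 *Sox17* ed/ed array, replicate 2, where its log2 signal was 4.96 against 1.81 and 1.75 on the other two. The pseudogene *Cldn25-ps* and the genes *Cldn34c2*, *Cldn34c3* and *Cldn34c4* had no matched probe and were not analysed here.

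The remaining marker lists gave the following. Of 5 mesothelial markers tested, 1 rose and 1 fell. Of 8 leukocyte markers, 0 passed. Of 5 markers of multiciliated cells and oviduct, *Foxj1* rose by 2.43 and *Dnah5* and *Ovgp1* differed by -2.83 and -2.93. *Foxj1* was well above background on 1 control array and 3 mutant arrays, and *Dnah5* on 3 control arrays and 1 mutant array. Of 4 ovary markers 1 rose, of 3 adipocyte markers 0 passed, and of 4 exocrine pancreas markers 1 fell.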
